A study of Homo sapiens with 36 samples.

Results

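A set of 35 genes of cholesterol and fatty acid synthesis was followed in leukemia cell lines with an LMO2 degron, TAL1 siRNAs or LDB1 shRNAs. The genes were chosen by symbol and fall into 5 roles: 8 enzymes of the mevalonate arm, 10 enzymes of the sterol arm, 6 genes that control the sterol regulatory element binding proteins (SREBPs), 5 genes of the liver X receptors (LXRs) and their targets, and 6 genes of fatty acid synthesis and desaturation. All 35 have a row among the 60642 genes of the K562 degron table and among the 57820 genes of the HEL table. In the LDB1 table of 13707 genes, 33 have a row, and ABCA1 and ABCG1 do not.

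The study asks what the LMO2, LDB1 and TAL1 complex regulates in leukemia, and 36 libraries were sequenced from 2 established lines. K562 is a chronic myeloid leukemia line with erythroid features, and HEL is an erythroleukemia line. LMO2 is an adaptor without DNA binding of its own, TAL1 is its DNA-binding partner and LDB1 bridges complexes that hold LMO2. In the largest set, 24 K562 libraries came from LMO2 degron cells, labelled rep 1 and rep 2 and read here as degron line 1 and degron line 2, from parental K562 cells and from a line called LMO2 control, with the last 2 together called the control lines. There are 2 libraries for each line and day: untreated cells on day 0 and cells under dTAGv1 on days 1 and 4. dTAGv1 bridges a degron-tagged protein to a ubiquitin ligase, and the cell then destroys the protein. Parental and LMO2 control cells received the compound too. The labels write its dose as 750 uM, which could be a slip of the unit. The construct in the LMO2 control line, and whether a degron line is 1 clone, are not given in the labels. The HEL set holds 3 libraries with TAL1 siRNA pool 1, 3 with TAL1 siRNA pool 2 and 3 with a non-targeting pool. The last set holds 3 K562 libraries: 1 with LDB1 shRNA 1, 1 with LDB1 shRNA 2 and 1 with a control shRNA.

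Cholesterol is made from acetyl-CoA through mevalonate, isoprenoids, squalene and lanosterol, and fatty acids are built from the same precursor. SREBPs are membrane-bound transcription factors of these enzymes: SCAP escorts them for cleavage when sterols are low, INSIG proteins hold them back when sterols are high, and LXRs sense oxysterols and raise genes of sterol export. In myeloid leukemia cells the mevalonate route has been studied as a target of statins.

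Depth was 17196756 to 26321637 reads per K562 degron library, recovered from the deposited values, and 15869619 to 27029836 counts per HEL library. No depth can be given for the LDB1 libraries, whose table holds TPM. Erythroid GATA1 stood at 51.9 to 186 FPKM (the deposited expression value, scaled to gene length and library size) in the degron set and at 68.6 to 115 CPM (counts scaled to library size) in HEL. T-cell CD3E, fibroblast DCN and hepatocyte APOB stayed under 0.42 FPKM in K562 and under 0.14 CPM in HEL. K562 libraries also carried CD3D (7.07 to 142 FPKM) and the epithelial genes EPCAM (8.84 to 47.7 FPKM) and KRT19 (60.1 to 281 FPKM). LMO2 RNA averaged 213 ± 82.3 and 249.6 ± 21.8 FPKM in degron lines 1 and 2 on day 4, against 41.03 ± 4.504 FPKM in parental cells and 365 ± 111 FPKM in the LMO2 control line (SD, n = 2 each). The lines differed before dTAGv1 too. On day 0 the means were 139 and 146 FPKM in degron lines 1 and 2, 34.8 FPKM in parental cells and 250 FPKM in the LMO2 control line. A degron acts on protein, so this RNA does not test LMO2 loss. TAL1 fell in HEL, to 166 to 191 CPM with pool 1 and 180 to 195 CPM with pool 2, against 439 to 491 CPM with the non-targeting pool. LDB1 stood at 62.4 and 69.6 TPM (transcripts scaled to a fixed library total) with the LDB1 shRNAs, against 468 TPM with the control shRNA. In the same libraries LMO2 stood at 44.2 and 46.2 TPM, against 131 TPM, and TAL1 at 105 and 103 TPM, against 102 TPM.

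Of the 35 genes, 33 were at 1 FPKM or more in all 24 K562 degron libraries and were tested. The most abundant by median over these libraries were the desaturase SCD (380.1 FPKM, range 121 to 639.8), INSIG1 (185 FPKM, range 36.9 to 356) and fatty acid synthase FASN (158 FPKM, range 33.0 to 239.7). The cholesterol exporters ABCA1 and ABCG1, both LXR targets, were near the floor, at no more than 0.0658 FPKM (18 reads) and 0.0351 FPKM (5 reads), and were not tested. Over the 24 libraries ABCA1 had a median of 0.0203 FPKM and a low of 0, with no line or day standing apart.

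Genes of both arms of cholesterol synthesis, INSIG1 and most of the fatty acid genes fell in the degron lines after 4 days. The degron-specific change is the mean log2 change of (FPKM + 1) since day 0 in both degron lines minus that in both control lines, and a gene was called at an adjusted p under 0.05 over all 15348 genes tested (limma). On day 4, 17 of 33 members were called lower, where 8.18% of all genes were, and 0 of 33 were called higher, where 11.6% of all genes were. Their median change was -0.72, against 0.06 for all genes, and 29 of 33 values were negative. In bulk RNA, fewer cells of a type and less RNA per cell cannot be told apart. By role, 7 of 8 mevalonate arm genes fell, 5 of 10 sterol arm genes, 1 of 6 SREBP control genes, 0 of 3 tested LXR genes and 4 of 6 genes of fatty acid synthesis. With the replicate number as a block, 20 of 33 were lower, where 15.6% of all genes were. The 3 added by the block were the sterol methyl oxidase MSMO1 (adjusted p = 0.0115), INSIG2 (adjusted p = 0.0409) and NR1H2 (adjusted p = 0.0272). The INSIG2 value holds mostly the control lines. Its log2 difference between days 4 and 0 was -0.035 in degron line 1 and -0.01 in degron line 2. It was 0.402 in parental cells and 0.217 in the LMO2 control line.

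**Figure D1:**
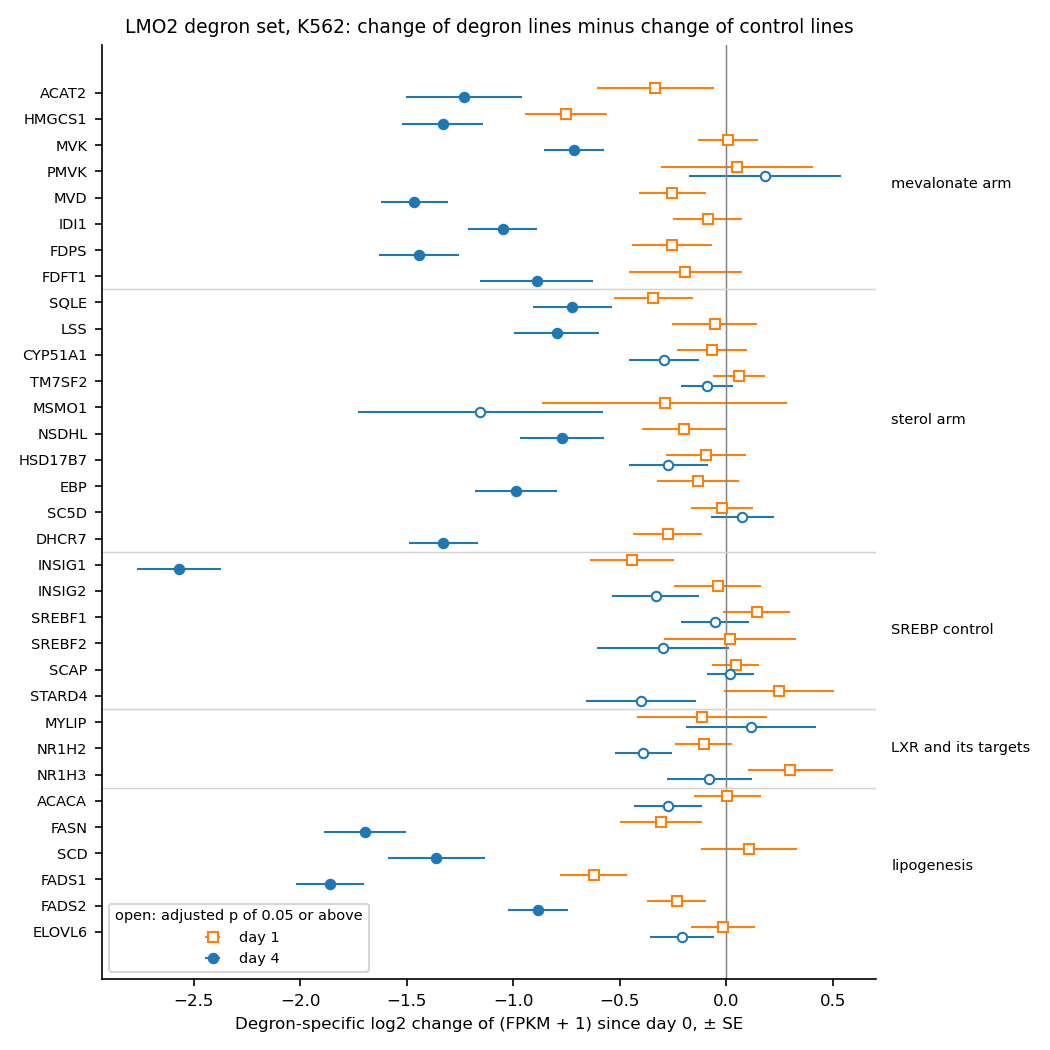
Degron-specific log2 change of (FPKM + 1) since day 0 for the 33 tested members, grouped by role, on day 1 (squares) and day 4 (circles). Bars are standard errors from limma and open symbols have an adjusted p of 0.05 or above; the 17 filled circles run from MVK at -0.71 to INSIG1 at -2.57, and no square is filled.

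In the mevalonate arm, which runs from acetyl-CoA to squalene, MVD and FDPS had the smallest adjusted p. MVD, which decarboxylates mevalonate diphosphate to isopentenyl diphosphate, stood at 17.8 and 20.8 FPKM in degron line 1 and at 18.1 and 17.9 FPKM in degron line 2 on day 4, against 69.4 and 66.6 FPKM in parental cells and 62.2 and 61.1 FPKM in the LMO2 control line. On day 0 it was 36.0 and 33.9 FPKM in degron line 1 and 50.7 and 54.2 FPKM in degron line 2, against 62.3 and 46.5 FPKM in parental cells and 52.1 and 49.2 FPKM in the LMO2 control line. The 4 degron libraries of day 4 lie below all 20 others, and the degron-specific change was -1.46 ± 0.16 (SE; adjusted p = 3.05e-05).

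FDPS, which makes farnesyl diphosphate, stood at 17.3 and 23.7 FPKM in degron line 1 and at 13.8 and 15.2 FPKM in degron line 2 on day 4, against 49.8 and 60.2 FPKM in parental cells and 47.2 and 53.8 FPKM in the LMO2 control line. On day 0 its FPKM was 34.3 and 44.8 in degron line 1 and 39.6 and 44.4 in degron line 2, against 42.2 and 47.5 in parental cells and 39.5 and 47.6 in the LMO2 control line. The groups overlapped on day 0 and were apart on day 4, with a degron-specific change of -1.44 ± 0.19 (adjusted p = 0.000141). FDPS has 8 pseudogenes in the table, none above 0.567 FPKM, and shares 18.6% of its exon bases with RUSC1-AS1 on the opposite strand. No strand setting is given, so reads of such partners cannot be told apart.

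The other called mevalonate genes were ACAT2, the cytosolic thiolase that joins acetyl-CoA (-1.23), HMGCS1, which makes the precursor of mevalonate (-1.33), MVK, mevalonate kinase (-0.71), IDI1, which isomerises isopentenyl diphosphate (-1.05), and FDFT1, squalene synthase (-0.89). FDFT1 is the least stable: its call held in 7 of 16 fits that left out 1 library of day 0 or 4, whereas each of the other 16 called members kept its call in all 16. PMVK, the next kinase after MVK, did not pass (0.18 ± 0.36, adjusted p = 0.77). ACAT2 shares 26.5% of its exon bases with SOD2, 33.9% with SOD2-OT1 and 9.23% with TCP1 on the opposite strand. HMGCS1 shares 15.0% with AC114947.2 and IDI1 shares 14.8% with IDI2-AS1, so the values of these genes are uncertain. For ACAT2 and HMGCS1 the shares are of 4299 and 4702 exon bases. The lengths recovered from the FPKM were 2639 and 6627 bases, so the shares of the counted bases are not known.

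In the sterol arm, which turns squalene into cholesterol, DHCR7 and EBP had the smallest adjusted p. DHCR7, the 7-dehydrocholesterol reductase, stood at 26.2 and 32.6 FPKM in degron line 1 and at 30.2 and 30.7 FPKM in degron line 2 on day 4, against 106 and 115 FPKM in parental cells and 82.0 and 92.5 FPKM in the LMO2 control line. On day 0 it was 49.0 and 59.96 FPKM in degron line 1 and 71.4 and 85.3 FPKM in degron line 2, against 81.4 and 97.5 FPKM in parental cells and 69.6 and 87.8 FPKM in the LMO2 control line. The day 4 groups do not overlap, and DHCR7 changed by -1.33 ± 0.16 (adjusted p = 7.55e-05).

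EBP, the sterol isomerase, stood at 10.5 and 13.9 FPKM in degron line 1 and at 6.60 and 7.67 FPKM in degron line 2 on day 4, against 23.97 and 26.7 FPKM in parental cells and 19.6 and 26.1 FPKM in the LMO2 control line. On day 0 its FPKM was 17.4 and 24.3 in degron line 1 and 15.5 and 20.7 in degron line 2, against 24.4 and 25.5 in parental cells and 20.1 and 25.0 in the LMO2 control line. Degron line 2 was the lower of the degron lines on day 4, and the degron-specific change was -0.99 ± 0.19 (adjusted p = 0.00252).

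SQLE, squalene epoxidase (-0.72), LSS, lanosterol synthase (-0.80), and NSDHL, a sterol dehydrogenase of C4 demethylation (-0.77), also fell. MSMO1 had a value as low as these (-1.15 ± 0.57, adjusted p = 0.178), but its libraries spread widely, from 24.7 to 107 FPKM in the control lines of day 4 against 10.99 to 16.1 FPKM in the degron lines. CYP51A1, the lanosterol demethylase (-0.29), TM7SF2, a sterol reductase (-0.09), HSD17B7 (-0.27) and SC5D, the lathosterol desaturase (0.07), did not pass the test.

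Promoter sequences are shown for genes of the coordinated fall, written 5′ to 3′ on the gene's strand. Each holds 250 bases before a RefSeq start and 50 after it (RefSeq, GRCh38.p14). Of the members, 30 matched an entry, and some of them have more than 1 start. A member was counted when at least 1 of its windows held the motif. The CCAAT box, a site of the factor NF-Y that works beside SREBP at sterol genes, was searched as CCAAT on either strand and is set in capitals. It was in the promoters of 12 of the 13 members called on day 4 that have an entry, in 9 of the 17 other members, and in 39.7% of 27305 genes. A match is a description of letters, not of a bound site.
MVD, chr16:88663042-88663341, minus strand: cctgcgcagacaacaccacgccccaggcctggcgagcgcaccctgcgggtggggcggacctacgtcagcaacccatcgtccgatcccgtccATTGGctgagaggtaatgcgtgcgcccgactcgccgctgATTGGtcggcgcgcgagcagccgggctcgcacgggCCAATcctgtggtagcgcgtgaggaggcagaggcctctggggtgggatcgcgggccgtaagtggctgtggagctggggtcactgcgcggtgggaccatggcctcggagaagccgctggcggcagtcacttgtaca
FDPS, chr1:155308616-155308915, plus strand: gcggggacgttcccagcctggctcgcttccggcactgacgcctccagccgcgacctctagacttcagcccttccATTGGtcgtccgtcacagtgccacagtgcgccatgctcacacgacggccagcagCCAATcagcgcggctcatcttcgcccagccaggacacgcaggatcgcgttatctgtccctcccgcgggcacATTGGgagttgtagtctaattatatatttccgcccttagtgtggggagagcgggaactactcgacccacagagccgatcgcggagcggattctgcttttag
EBP, chrX:48521558-48521857, plus strand: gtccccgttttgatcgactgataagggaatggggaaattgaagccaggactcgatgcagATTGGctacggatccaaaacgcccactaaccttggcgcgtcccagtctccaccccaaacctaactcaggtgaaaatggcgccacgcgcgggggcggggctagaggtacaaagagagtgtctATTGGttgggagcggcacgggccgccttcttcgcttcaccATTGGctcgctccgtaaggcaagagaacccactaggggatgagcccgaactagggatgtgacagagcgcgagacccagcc
DHCR7, chr11:71448344-71448643, minus strand: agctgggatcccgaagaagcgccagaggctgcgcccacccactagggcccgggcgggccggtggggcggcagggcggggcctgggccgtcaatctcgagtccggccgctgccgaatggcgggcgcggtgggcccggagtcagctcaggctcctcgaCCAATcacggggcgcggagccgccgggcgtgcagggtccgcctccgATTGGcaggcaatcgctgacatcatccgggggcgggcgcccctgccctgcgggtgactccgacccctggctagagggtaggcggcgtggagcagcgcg
MVD, FDPS and EBP each hold 3 CCAAT runs in this window and DHCR7 holds 2. The window of another DHCR7 start, chr11:71448994-71449293, holds none. HMGCS1, IDI1 and FADS2 also have a window without CCAAT beside 1 or more with it.

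**Figure D2:**
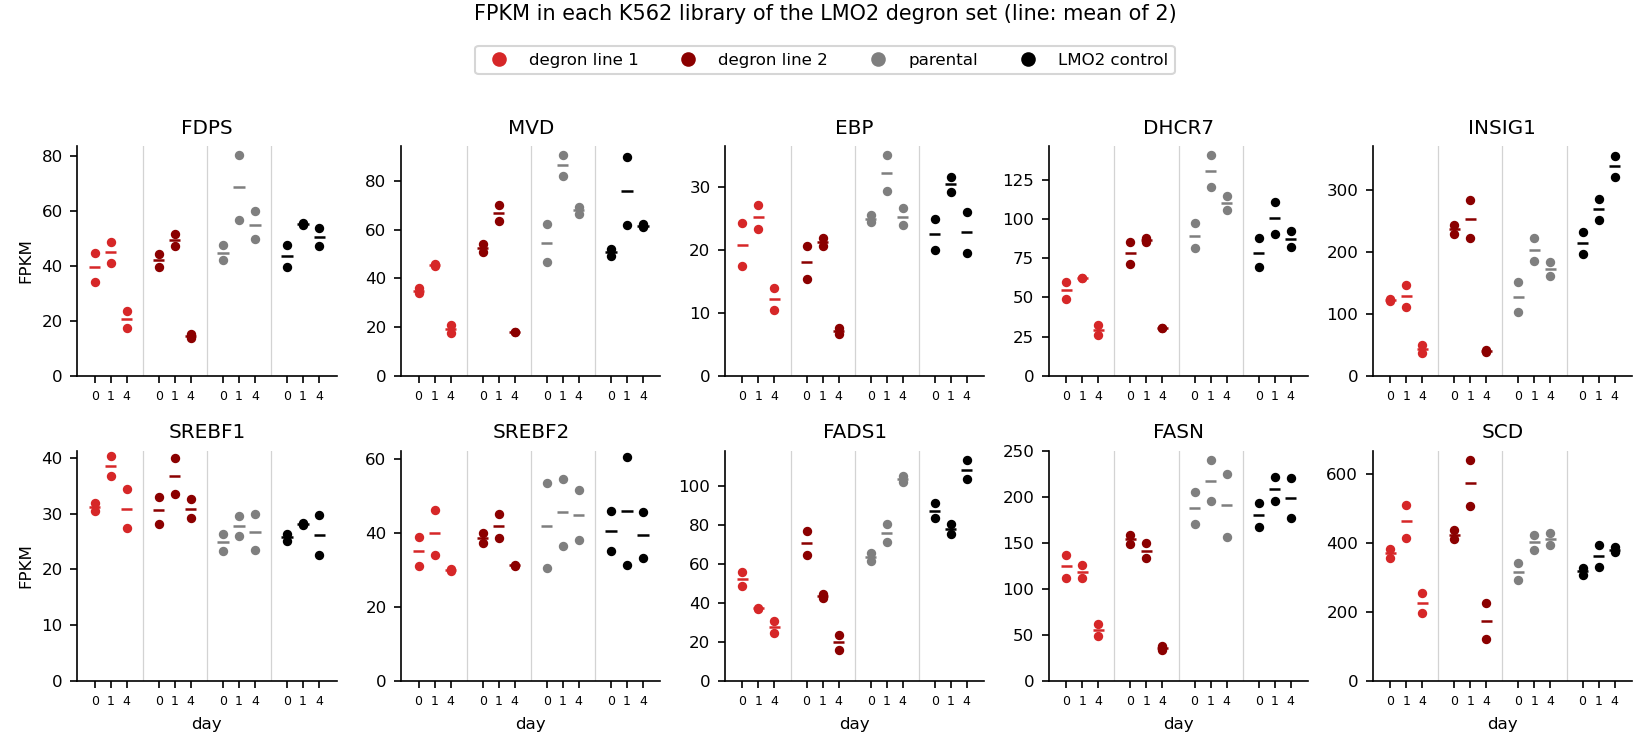
FPKM in each of the 24 K562 libraries for 10 members, by line and day (dots, libraries; lines, means of 2). In the degron lines day 4 is the lowest day for FDPS, MVD, EBP, DHCR7, INSIG1, FADS1, FASN and SCD, while SREBF1 and SREBF2 stay between 27.4 and 46.2 FPKM there.

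Among the genes that control SREBP, INSIG1 fell furthest of the 33 members. INSIG1, which retains the SCAP and SREBP complex in the endoplasmic reticulum and is itself an SREBP target, stood at 36.9 and 49.3 FPKM in degron line 1 and at 39.2 and 42.2 FPKM in degron line 2 on day 4, against 184 and 161 FPKM in parental cells and 356 and 322 FPKM in the LMO2 control line. On day 1 it was 111 and 147 FPKM in degron line 1 and 223 and 285 FPKM in degron line 2, against 186 and 223 FPKM in parental cells and 252 and 286 FPKM in the LMO2 control line. On day 0 it was 121 and 125 FPKM in degron line 1 and 244 and 230.1 FPKM in degron line 2, against 151 and 104 FPKM in parental cells and 196 and 232 FPKM in the LMO2 control line. The lines differed in level on days 0 and 1 but both degron lines were under 50 FPKM on day 4, and the degron-specific change was -2.57 ± 0.20 (adjusted p = 2.25e-06).

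The SREBP genes themselves did not pass the test. SREBF1, which encodes the SREBP of lipogenesis, stood at 27.4 and 34.4 FPKM in degron line 1 and at 32.7 and 29.2 FPKM in degron line 2 on day 4, against 23.5 and 30.01 FPKM in parental cells and 22.6 and 29.8 FPKM in the LMO2 control line. Its day 0 values were 30.4 and 31.9 FPKM in degron line 1 and 28.1 and 33.1 FPKM in degron line 2, against 23.4 and 26.3 FPKM in parental cells and 25.2 and 26.4 FPKM in the LMO2 control line. The day 4 ranges overlap, and the degron-specific change was -0.05 ± 0.16 (adjusted p = 0.854).

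SREBF2, which encodes the SREBP of sterol synthesis, stood at 29.6 and 30.2 FPKM in degron line 1 and at 31.2 and 31.2 FPKM in degron line 2 on day 4, against 51.6 and 38.0 FPKM in parental cells and 45.7 and 33.3 FPKM in the LMO2 control line. On day 0 its FPKM was 39.0 and 31.0 in degron line 1 and 39.9 and 37.2 in degron line 2, against 53.6 and 30.5 in parental cells and 45.9 and 35.02 in the LMO2 control line. The 4 degron libraries of day 4 lie below the 4 control libraries of that day, but the change since day 0 was -0.30 ± 0.31 (adjusted p = 0.547). SCAP (0.02), INSIG2 (-0.33) and STARD4, a sterol carrier (-0.40), were not called either without the replicate block. With the block INSIG2 was called lower.

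The core of the sterol regulatory element, searched as TCACCCCAC on both strands, was found in the window of SREBF2 and of no other member with an entry, and in 0.535% of 27305 genes. The looser TCACNCCAC, which includes it, was in SREBF2 alone among the members and in 1.39% of genes. Both promoters are shown because INSIG1 fell most and SREBF2 holds that core, which with CCAAT is in capitals; the core starts 133 bases before the SREBF2 start.
INSIG1, chr7:155297628-155297927, plus strand: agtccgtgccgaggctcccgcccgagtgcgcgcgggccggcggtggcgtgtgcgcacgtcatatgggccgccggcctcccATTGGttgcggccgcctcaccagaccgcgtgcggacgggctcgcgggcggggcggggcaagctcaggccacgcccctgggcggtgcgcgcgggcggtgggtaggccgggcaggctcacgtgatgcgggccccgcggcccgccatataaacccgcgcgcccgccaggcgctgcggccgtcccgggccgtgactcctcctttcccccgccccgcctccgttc
SREBF2, chr22:41832855-41833154, plus strand: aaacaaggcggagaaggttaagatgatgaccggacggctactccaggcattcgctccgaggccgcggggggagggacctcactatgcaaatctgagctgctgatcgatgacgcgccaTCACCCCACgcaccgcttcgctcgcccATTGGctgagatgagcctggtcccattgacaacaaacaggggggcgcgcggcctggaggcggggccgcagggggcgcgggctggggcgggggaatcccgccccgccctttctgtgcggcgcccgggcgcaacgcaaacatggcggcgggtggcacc
A window without these letters says nothing of binding elsewhere in a gene.

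Among the LXR genes none was called on day 4 without the block and NR1H2 was called lower with it. NR1H2 and NR1H3, which encode the LXRs, had values of -0.39 (adjusted p = 0.0521, with the block 0.0272) and -0.08, and MYLIP, an LXR target that marks a lipoprotein receptor for breakdown, had 0.12.

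In fatty acid synthesis, 4 of 6 genes fell. FADS1, the delta-5 desaturase of polyunsaturated fatty acids, stood at 30.7 and 24.5 FPKM in degron line 1 and at 23.6 and 16.0 FPKM in degron line 2 on day 4, against 102 and 105 FPKM in parental cells and 113 and 104 FPKM in the LMO2 control line. On day 1 it was 37.4 and 37.0 FPKM in degron line 1 and 42.6 and 44.8 FPKM in degron line 2, against 80.7 and 71.3 FPKM in parental cells and 80.7 and 75.5 FPKM in the LMO2 control line. On day 0 it was 55.7 and 48.9 FPKM in degron line 1 and 64.5 and 76.8 FPKM in degron line 2, against 65.9 and 61.3 FPKM in parental cells and 91.4 and 83.5 FPKM in the LMO2 control line. In both degron lines it was lower on each later day, and the degron-specific change on day 4 was -1.86 ± 0.16 (adjusted p = 4.23e-06).

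FASN, which makes palmitate, stood at 48.3 and 62.1 FPKM in degron line 1 and at 37.8 and 33.0 FPKM in degron line 2 on day 4, against 157 and 225 FPKM in parental cells and 177 and 220.6 FPKM in the LMO2 control line. On day 0 its FPKM was 112 and 137 in degron line 1 and 148 and 159 in degron line 2, against 169.9 and 205 in parental cells and 167 and 194 in the LMO2 control line. The degron libraries were below the control libraries on day 0 as well, and FASN changed by -1.70 ± 0.19 (adjusted p = 4.64e-05).

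SCD, which makes monounsaturated fatty acids, stood at 255 and 195 FPKM in degron line 1 and at 224 and 121 FPKM in degron line 2 on day 4, against 428 and 393 FPKM in parental cells and 387 and 373 FPKM in the LMO2 control line. On day 0 its FPKM was 381 and 356 in degron line 1 and 436 and 409 in degron line 2, against 341 and 291 in parental cells and 307 and 327 in the LMO2 control line. The order of the groups turned round between these days: the degron libraries were the higher ones on day 0 and the lower ones on day 4, with a degron-specific change of -1.36 ± 0.23 (adjusted p = 0.000819). SCD has 1 pseudogene in the table, at no more than 4.11 FPKM.

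FADS2, the delta-6 desaturase, fell by 0.89 (adjusted p = 0.000563) from a low level, with 1.32 to 2.78 FPKM in the degron lines of day 4 against 4.81 to 6.11 FPKM in the control lines. FADS1 and FADS2 overlap on opposite strands by 490 exon bases. ACACA, acetyl-CoA carboxylase (-0.27), and ELOVL6, a fatty acid elongase (-0.21), did not pass. The promoters of SCD, with 2 CCAAT runs, and of FADS1, the called member with an entry but no CCAAT in the window, show both cases. FASN had no entry.
SCD, chr10:100346983-100347282, plus strand: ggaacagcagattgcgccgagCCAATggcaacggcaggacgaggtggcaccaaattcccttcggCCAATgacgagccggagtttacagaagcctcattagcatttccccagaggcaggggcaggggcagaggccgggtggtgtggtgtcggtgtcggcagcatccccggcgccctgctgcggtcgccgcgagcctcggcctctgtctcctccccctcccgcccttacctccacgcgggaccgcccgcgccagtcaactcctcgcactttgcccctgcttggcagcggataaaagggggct
FADS1, chr11:61816954-61817253, minus strand: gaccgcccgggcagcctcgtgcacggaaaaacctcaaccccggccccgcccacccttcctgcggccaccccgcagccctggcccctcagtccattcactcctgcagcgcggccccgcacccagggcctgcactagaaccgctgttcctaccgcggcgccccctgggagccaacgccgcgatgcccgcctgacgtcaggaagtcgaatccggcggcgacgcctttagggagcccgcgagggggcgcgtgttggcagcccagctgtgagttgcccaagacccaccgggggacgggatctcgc
The SP1 motif GGGCGG, on either strand, was in 29 of 30 members and 48.3% of all genes, and the E-box CACGTG was in 5 of 30 and 8.77%. No CCAAT run of a member overlapped another motif.

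Among the called members the fall was seen in each degron line and each bio rep. The 17 were called on these same libraries, so their signs and separation describe the calls and are no added support. For the signs no share of all genes is given. All 17 called members had a negative value within bio rep 1 and within bio rep 2, and all 17 were lower on day 4 than on day 0 in both degron lines. In 17 of 17 the fall was larger in degron line 2, with no share of all genes given for this count. The degron lines also differed in level on day 0, not always in 1 direction. INSIG1 averaged 123.0 and 236.8 FPKM in degron lines 1 and 2 on day 0, and 43.1 and 40.7 FPKM on day 4. EBP averaged 20.9 and 18.1 FPKM in degron lines 1 and 2 on day 0, and 12.2 and 7.13 FPKM on day 4. INSIG1 fell by 1.51 on the log2 scale in degron line 1 and by 2.51 in degron line 2, but the difference between these lines (1.01 ± 0.28) was not called (adjusted p = 0.737), nor was that of any member, where 0.013% of all genes were. With degron line 1 alone 10 members were called lower on day 4, where 3.3% of all genes were, and with degron line 2 alone 18, where 6.37% were. For all 17, the 4 degron libraries of day 4 lie below the 4 control libraries of day 4, and this holds for 22 of 33 members and 20.2% of all genes.

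**Figure D3:**
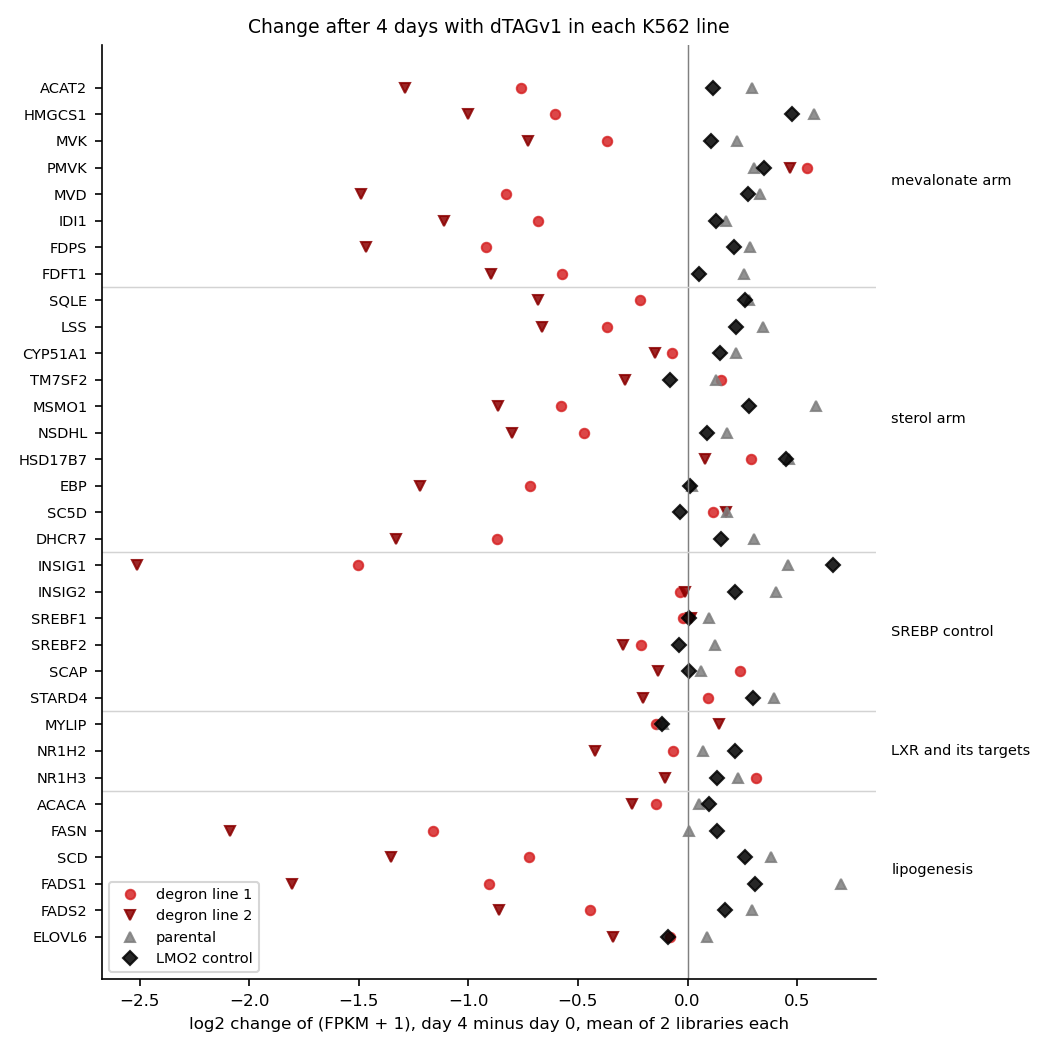
Log2 change of (FPKM + 1) from day 0 to day 4 in each K562 line for the 33 tested members, each a difference of means of 2 libraries. The called members lie left of 0 in both degron lines and right of 0 in both control lines, with INSIG1 at -1.51 and -2.51 in the degron lines against 0.46 and 0.66 in parental cells and the LMO2 control line.

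Measured within the degron lines, day 4 against day 0, 17 of 33 members were called lower (14.5% of all genes) and 0 higher (24.9%). With the block these were 19 lower (20.9%) and 1 higher (32.3%), the higher one being PMVK (0.51, adjusted p = 0.00121). The same libraries enter this comparison and the degron-specific one. In the control lines under the same dTAGv1, 0 of 33 were called on day 1 or on day 4, and 0% of all genes were (limma). Their values leaned upward: 31 of 33 were positive on each day, with medians of 0.24 on day 1 and 0.18 on day 4, against -0.02 and 0.03 for all genes. At an unadjusted p under 0.05, 14 members stood on day 1 and 7 on day 4, against 657 and 509 of all genes. HMGCS1 (0.77 ± 0.13, adjusted p = 0.326) and MVD (0.61 ± 0.11, adjusted p = 0.326) had the largest of these on day 1. The upward lean of the control lines is a term of the degron-specific change: for INSIG1 it supplied 0.56 and the degron lines -2.01.

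After 1 day of dTAGv1, 0 of 33 members had a called degron-specific change, where 0.0782% of all genes did. At an unadjusted p under 0.05 (limma) stood 3 members, with no share of all genes given for that threshold. These members were HMGCS1 (-0.75 ± 0.19), FADS1 (-0.62 ± 0.16) and INSIG1 (-0.44 ± 0.20). With the replicate block 2 were called lower, HMGCS1 (adjusted p = 0.0445) and FADS1 (adjusted p = 0.0417), where 0.625% of all genes were. The HMGCS1 value holds mostly the control lines: its log2 difference between days 1 and 0 was -0.22 in degron line 1 and 0.26 in degron line 2, against 1.01 in parental cells and 0.53 in the LMO2 control line. Within the degron lines alone FADS1 fell by day 1 (-0.58 ± 0.11, adjusted p = 0.00989; 1.65% of all genes were lower) and TM7SF2 rose (0.43 ± 0.09, adjusted p = 0.0113; 2.63% were higher). With the block NR1H3, SCD and MVD joined TM7SF2 as higher (7.39% of all genes) and FADS1 remained the lower one (7.06%). The control lines had day 1 values of like or larger size for TM7SF2 and MVD. TM7SF2 had 0.46 and 0.41 in degron lines 1 and 2, against 0.48 in parental cells and 0.26 in the LMO2 control line. MVD had 0.37 and 0.34 in degron lines 1 and 2, against 0.67 in parental cells and 0.55 in the LMO2 control line.

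HMGCS1 was among the members that stood apart before any dTAGv1. On day 0 it was 22.2 and 34.2 FPKM in degron line 1 and 32.3 and 39.7 FPKM in degron line 2, against 66.7 and 54.6 FPKM in parental cells and 47.7 and 70.2 FPKM in the LMO2 control line. These ranges do not overlap, and degron lines were lower by a log2 difference of -0.89 ± 0.13 (adjusted p = 0.000332). In all, 5 members were lower in the degron lines on day 0 (6.14% of all genes were), the others being CYP51A1 (-0.40), DHCR7 (-0.35), ACACA (-0.45) and ELOVL6 (-0.57). TM7SF2 (0.27) and NR1H2 (0.32) were higher (10.6% of all genes were), calls lost when libraries were rescaled by trimmed means. Degron line 1 was not above the LMO2 control line in either. TM7SF2 averaged 9.26 ± 0.789 FPKM in degron line 1 and 13.2 FPKM in degron line 2, against 7.75 ± 0.712 FPKM in parental cells and 10.4 ± 0.41 FPKM in the LMO2 control line (SD, n = 2 each). NR1H2 averaged 22.5 ± 0.594 and 26.6 ± 5.41 FPKM in degron lines 1 and 2, against 15.5 ± 0.495 FPKM in parental cells and 23.8 ± 1.35 FPKM in the LMO2 control line (SD, n = 2 each). With the replicate block 10 were lower (12.9%) and 7 higher (17.9%). Only 3 members were called when 1 of these day 0 libraries was left out: replicate 2 of the LMO2 control line, or replicate 1 of either degron line.

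Set directly against the control lines, 15 members were lower in the degron lines on day 1 (13.5% of all genes) and 4 higher (21.4%). On day 4, 21 were lower (22.6%) and 1 was higher (31.5%), the last being SCAP (0.21 ± 0.08, adjusted p = 0.035). With the block 18 were lower (20.4%) and 7 higher (28.3%) on day 1, and 23 were lower (27.8%) and 4 higher (36.7%) on day 4. On day 4 the block added SREBF2 (-0.43, adjusted p = 0.0105) and STARD4 (-0.42, adjusted p = 0.0407) as lower, and PMVK (0.56, adjusted p = 0.000348), NR1H3 (0.27, adjusted p = 0.037) and SREBF1 (0.22, adjusted p = 0.0426) as higher. The higher calls of members differed between tests: edgeR on recovered reads called 0 members higher on day 4, and 1 with the block. No edgeR share of all genes called higher is given, so fewer calls among members cannot be told from fewer calls over all genes. These differences include those of day 0. ELOVL6, ACACA, CYP51A1 and MSMO1 were lower on day 4 in this sense without a called degron-specific change since day 0 in the fit without the block; with it, that of MSMO1 was called. Their day 4 differences were -0.77, -0.72, -0.70 and -1.75.

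Other genes of lipid metabolism were counted from lists that held neither the 35 members nor each other, against 8.18% of all genes lower and 11.6% higher on day 4. On day 4, 3 of 12 other sterol and isoprenoid genes fell and 0 rose, among them TMEM97, a sterol-regulated membrane protein (-1.15 ± 0.17, adjusted p = 0.00038). Of 26 other fatty acid and lipid synthesis genes, 21 were tested: 6 fell and 1 rose, with ACSS2, which makes acetyl-CoA from acetate (-1.08 ± 0.20, adjusted p = 0.0015), FADS3 (-1.13 ± 0.21, adjusted p = 0.00182) and ELOVL7 (-1.06 ± 0.22, adjusted p = 0.00345) lower. Of 14 genes of sterol uptake, transport and storage, 10 were tested: 3 fell and 2 rose, and SCARB1, a lipoprotein receptor, was lower (-1.25 ± 0.17, adjusted p = 0.000195). Of 9 genes of SREBP processing, 4 rose and 0 fell, with the protease gene MBTPS1 (0.78 ± 0.11, adjusted p = 0.000277) and the ubiquitin ligase gene RNF145 (1.24 ± 0.20, adjusted p = 0.00058) higher. The medians of these lists were -0.20, -0.10, 0.09 and 0.16 in that order.

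Cell markers moved beside the members on day 4. Of 8 erythroid markers 4 fell, where 8.18% of all genes did, and 1 rose, where 11.6% did, and their summed level was 283 to 303 FPKM in the degron lines of day 4, against 724 to 1154 FPKM in the control lines. All 3 epithelial markers fell since day 0, with sums of 152 to 181 FPKM in the degron lines against 150.3 to 205 FPKM in the control lines. Of 4 lymphoid markers 2 were tested, and CD3D fell (-1.88 ± 0.45, adjusted p = 0.00862), with sums of 22.9 to 46.8 FPKM in the degron lines against 10.4 to 31.4 FPKM in the control lines. Of the tested megakaryocytic (2 of 4), stromal (1 of 3) and hepatocyte (1 of 3) markers none was called, and their sums reached no more than 5.30 FPKM on day 4 in any line. LDB1 RNA also fell (-0.89 ± 0.17, adjusted p = 0.002). The part of these shifts in the members' fall was not tested.

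In HEL cells with less TAL1, counts were tested with edgeR without a replicate block, and 1 of 35 members was called with pool 1. The numbers called with the block, which were larger, are given in the last section. FADS1 fell to 72.2, 70.1 and 69.6 CPM with pool 1, against 130.1, 151 and 127 CPM with the non-targeting pool. Every pool 1 library lies below every non-targeting library, and the log2 change was -0.94 ± 0.09 (adjusted p = 6.45e-05). With pool 1, 1.65% of all genes were lower and 2.56% higher. With pool 2, FADS1 stood at 137, 132 and 135 CPM (log2 change -0.02 ± 0.08, adjusted p = 0.974). There edgeR called 0 of 35 members, where 1.05% of all genes were called, and DESeq2 called 0. At an unadjusted p under 0.05 (edgeR) stood 2 members, with no share of all genes given for that threshold. The difference between the pools was itself called for FADS1 (-0.93 ± 0.09, adjusted p = 0.000177) and for no other member, where 1.08% of all genes were lower and 1.68% higher. TAL1 RNA did not differ beyond its error between the pools (-0.07 ± 0.08, adjusted p = 0.746).

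INSIG1 was next in HEL. It stood at 42.4, 51.7 and 46.1 CPM with pool 1 and at 86.7, 50.9 and 57.0 CPM with pool 2, against 69.9, 67.8 and 94.3 CPM with the non-targeting pool. Pool 1 lies below the non-targeting libraries and pool 2 overlaps them. The changes were -0.73 ± 0.19 (adjusted p = 0.0572) with pool 1 and -0.25 ± 0.19 (adjusted p = 0.676) with pool 2; DESeq2 called the first of these (adjusted p = 0.00526).

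With pool 2 the smallest adjusted p without the replicate block were those of SREBF1 and MYLIP, neither called. SREBF1 stood at 107, 129 and 138 CPM with pool 2, against 84.7, 103 and 117 CPM with the non-targeting pool (0.29 ± 0.12, adjusted p = 0.367). MYLIP stood at 30.3, 24.2 and 21.7 CPM with pool 2, against 22.2, 20.6 and 19.7 CPM with the non-targeting pool (0.29 ± 0.13, adjusted p = 0.394). Both sets of values overlap between groups, but number by number each pool 2 library was above its non-targeting counterpart. With the replicate block edgeR called SREBF1 (adjusted p = 0.00279) but not MYLIP (adjusted p = 0.0857), though not all HEL numbers pair their libraries clearly. The members' median changes were -0.17 with pool 1 and -0.05 with pool 2, against -0.02 and -0.01 for all genes, and both pools share the non-targeting libraries. ABCA1, near the floor in K562, had 5.18 to 22.6 CPM in HEL, and all 35 members were tested there. Of 55 tested genes of the other lipid lists, pool 1 called ACSS2 higher (0.56, adjusted p = 0.00537). It called ACAT1 (-0.63, adjusted p = 0.00147) and ELOVL7 (-0.51, adjusted p = 0.00788) lower, and pool 2 called ACAT1 lower (-0.46, adjusted p = 0.0204). Over all genes pool 1 called 1.65% lower and 2.56% higher, and pool 2 called 1.05% in either direction.

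**Figure D4:**
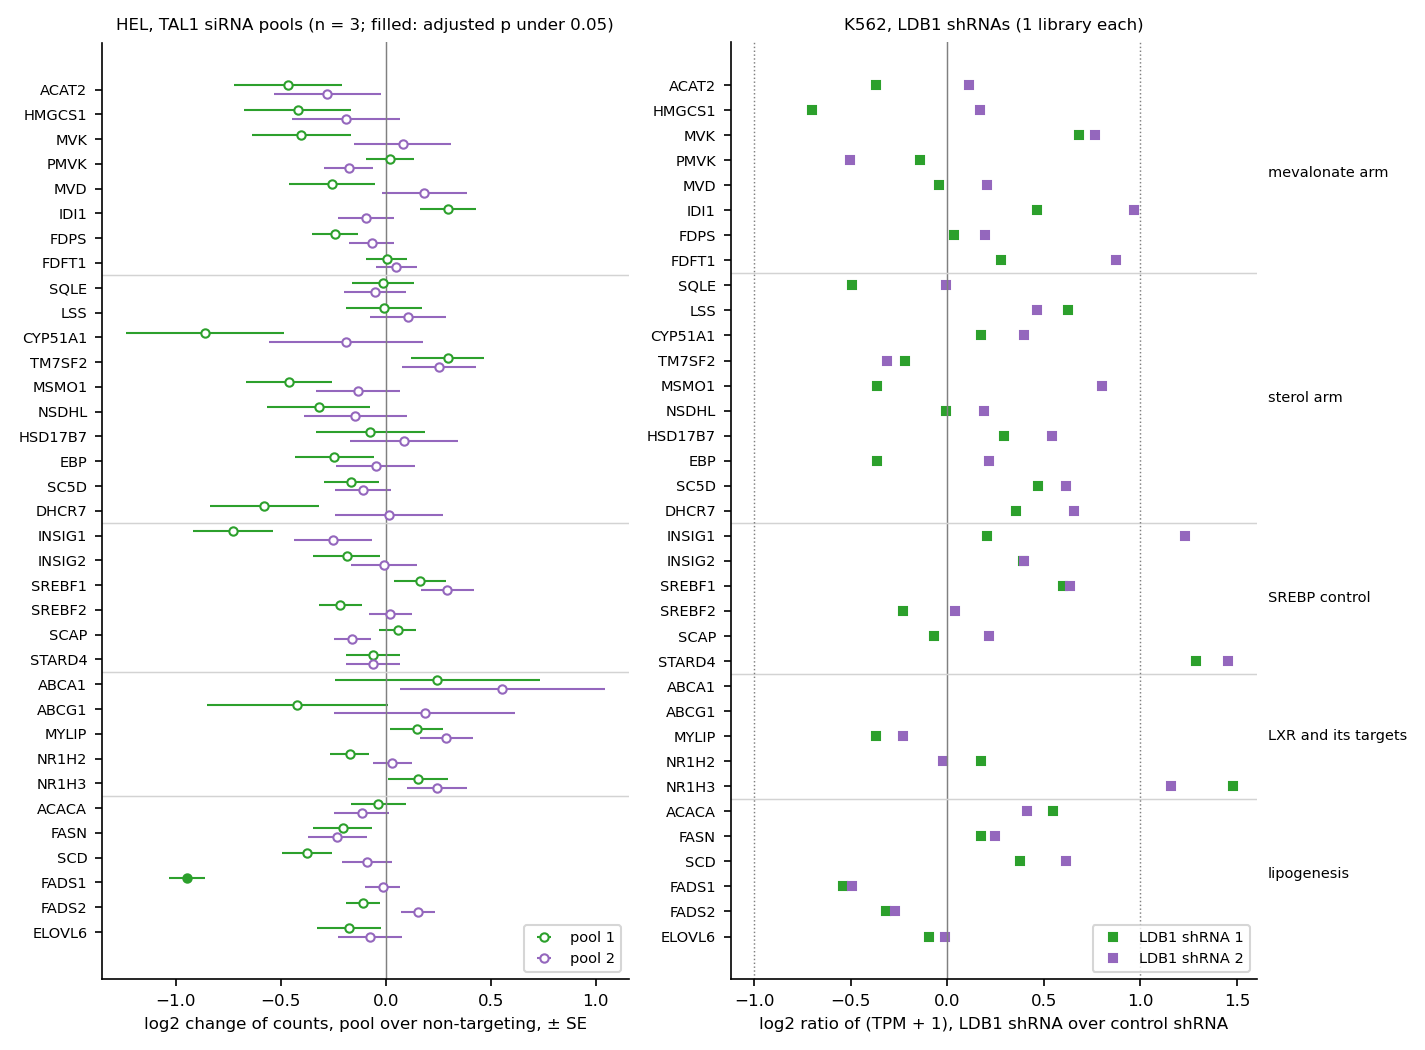
Left, log2 change of counts in HEL for each TAL1 siRNA pool over the non-targeting pool with standard errors from edgeR (n = 3 libraries a group; filled, adjusted p under 0.05). Right, log2 ratio of (TPM + 1) for each LDB1 shRNA over the control shRNA, 1 library each, with dotted lines at 2-fold; FADS1 with pool 1 is the 1 filled point, and STARD4 and NR1H3 lie past 2-fold with both shRNAs.

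With LDB1 shRNAs there is 1 library a group, so no test was made. A gene was counted when the ratio of (TPM + 1) was past 2-fold in both shRNA libraries, among 12445 genes reaching 5 TPM. Of 33 members, 2 were higher (8.94% of all genes) and 0 lower (2.21%). STARD4 stood at 70.5 and 79.0 TPM with LDB1 shRNAs 1 and 2, against 28.3 TPM with the control shRNA (log2 ratios 1.29 and 1.45). NR1H3 stood at 36.2 and 28.8 TPM with the LDB1 shRNAs, against 12.3 TPM with the control (1.48 and 1.16). INSIG1 stood at 217 and 443 TPM with the LDB1 shRNAs, against 188 TPM with the control (0.21 and 1.23), so the shRNAs differed between themselves. FADS1 stood at 136 and 141 TPM with the LDB1 shRNAs, against 199 TPM with the control (-0.54 and -0.49). The members' median log2 ratios were 0.17 and 0.24, against 0.18 and 0.13 for all genes.

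Side by side, FADS1 had a log2 change of -1.86 in the K562 degron lines on day 4, -0.94 and -0.02 with the TAL1 pools in HEL, and -0.54 and -0.49 with the LDB1 shRNAs. INSIG1 had -2.57 in the K562 degron lines, -0.73 and -0.25 with the TAL1 pools, and 0.21 and 1.23 with the LDB1 shRNAs. These come from tables made separately in different units and were not tested against each other.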

How the data were processed

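The authors deposited FPKM for the K562 degron set, raw counts for HEL and TPM for the LDB1 set, in tables made separately. Per the submitters' processing notes FastQC, STAR, featureCounts and hg19 were used; versions, annotation and strand setting are not given in the sources used here. FPKM were analysed as log2(FPKM + 1), which understates changes of low genes, for the 15348 genes at 1 FPKM or more in at least 2 libraries, in limma 3.58.1 (R 4.3.3; trend, robust) with 12 line-by-day groups. HEL counts were tested in edgeR 4.0.16 (quasi-likelihood, TMM, 16688 genes), with DESeq2 1.42.0 as an alternative. Adjusted p-values are Benjamini-Hochberg over all genes tested. Labels do not say that libraries came from separate cultures, so p-values measure the spread between libraries. Whole reads were recovered from the FPKM for 32813 of the 40929 genes above 0 in any library. Of their non-zero values 99.4% were within 0.05 of a whole read. The recovery itself asks for such closeness, so this share is no separate check. On day 4 edgeR on these reads called 18 members, 2645 genes in all. Bio rep numbers are taken from the labels; in the degron set same-numbered libraries deviated together (132 of 132 pairs over r = 0.1, lowest 0.12), so the block is given where it changes a call. Members and lists were chosen with earlier results of these data known. Named genes were the called ones with the 2 smallest adjusted p of each role on day 4, with INSIG1, SREBF1, SREBF2, SCD, FASN and ABCA1, the 2 smallest adjusted p per HEL pool, members past 2-fold in both LDB1 libraries, up to 3 of each other list, and LMO2, LDB1 and TAL1; genes outside the rule were named after their values were seen. The direct comparison of degron with control lines on days 1 and 4, the difference between the degron lines and the fits on recovered reads were chosen after seeing the data. The fits were also run on simulated data with known changes. Those data were drawn without shared deviations of same-numbered libraries, so they do not test how such deviations affect the calls.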

Additional observations from a re-analysis of the deposited data

Results flagged for a closer look

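FADS1, the delta-5 desaturase, differed between the TAL1 siRNA pools in HEL. Its log2 difference, pool 1 over pool 2, was -0.93 ± 0.09 (edgeR, adjusted p = 0.000177), with 3 of 3 pool 1 libraries below 3 of 3 pool 2 libraries (69.6 to 72.2 CPM against 132 to 137 CPM). TAL1 RNA was at 166 to 191 CPM with pool 1 and 180 to 195 CPM with pool 2.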

How the results depend on the processing

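On day 4 of the degron set, the count of 17 members went to 10 with degron line 1 only and stayed at 13 to 21 under the other settings (16 to 18 when 1 library was left out). The replicate block called 2 members on day 1, 5 for degron lines on day 1 against day 0, and 17 on day 0; edgeR on recovered reads with replicate block, chosen after seeing the data, gave 2, 5 and 17, and 3 for control lines on day 1; on day 0 its 17 were 13 lower and 4 higher, against 10 lower and 7 higher in limma with the block. In the comparisons of degron with control lines and of days, the block added calls and removed none. Leaving out 1 library gave 1 to 2 members for degron lines on day 1 (1 without replicate 2 of day 0 or replicate 1 of day 1, in either degron line), 0 to 1 for control lines on day 1 (1 without LMO2 control day 1 replicate 2), 3 to 7 on day 0 and 1 to 2 between the HEL pools (2 without siTAL1 pool 2 replicate 1). Without a filter on low values 4 members were called on day 0, and without a filter on low counts 3 with pool 1 and 3 between the pools. DESeq2 called 2 with pool 1. HEL numbers do not all pair the libraries by the 0.1 criterion (6 of 9 pairs over it, 6 of 9 libraries closest to their own number). Libraries of number 1 met it (3 of 3 pairs, lowest r = 0.317), those of numbers 2 and 3 only in part (1 of 3 and 2 of 3 pairs). With a replicate block 8 members were called with pool 1 (7 lower, 1 higher) and 4 with pool 2 (2 lower, 2 higher). Between the pools 7 were called (5 lower, 2 higher). Calls over all 16688 genes went to 1471 lower and 1417 higher with pool 1. They went to 865 and 829 with pool 2, and to 1183 and 1248 between the pools. The members called with pool 2 were FASN and ACAT2 lower, and ABCA1 and SREBF1 (0.30, edgeR adjusted p = 0.00279) higher. At 1.5-fold, 4 members were counted with LDB1 shRNAs, all higher: STARD4, NR1H3, MVK and SREBF1. No share of all genes is given at 1.5-fold. Where a count in this section has no share of all genes, it describes the setting and is not read as a result about the members. The causes were not tested. With 2 libraries per line and day, and 1 per LDB1 group, the number of libraries limits what could be called; the LDB1 depth is unknown.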
